A study of Mus musculus with 10 samples.

Results

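Basal epithelial cell genes were described in the prostates of 10 male TRAMP mice, as 10 genes chosen by name from the 19938 genes that had a probe set with a single gene symbol. They were Krt5, Krt14, Krt15, Krt17, Trp63, Itga6, Itgb4, Lamb3, Dst and Dsg3, each represented by 1 probe set. In the TRAMP strain a viral T antigen is driven by a probasin promoter, which is active in the secretory epithelium of the prostate, and prostate tumours develop. All 10 mice came from the same breeding facility, and the groups differed in what the mice drank from an age of 8 to 9 weeks. The 5 nicotine mice drank tap water with nicotine tartrate at 250 µg/ml of nicotine, and the 5 water mice drank plain tap water. RNA of each prostate was measured on 1 whole-transcript array, and all values are log2 values as the authors deposited them. The sources used here give neither the age at collection nor the lobes taken.

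Basal cells line the outside of prostate glands, between the secretory luminal cells and the basement membrane. They are recognised by the keratin pair Krt5 and Krt14 and by the transcription factor p63, and they are held to the basement membrane by hemidesmosomes, in which the integrin of the Itga6 and Itgb4 chains binds laminin outside the cell and the plakin encoded by Dst and the keratin filaments inside it. In normal human prostate basal cells form a nearly continuous layer, and loss of that layer is used in human pathology to recognise invasive carcinoma.

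The 10 genes did not move together, and none of them differed between the nicotine and the water mice beyond the spread between mice. The basal keratins and the 2 integrin chains had their lowest values in nicotine 3, the same mouse had the highest value of Dst, and Krt15, Krt17, Itga6, Itgb4 and Lamb3 were highest in nicotine 2. Trp63 stayed within 7.39 and 7.62 in all 10 mice, near the array medians of 7.50 to 7.57. The water means of Krt5, Krt14, Krt15, Krt17 and Lamb3, 7.27 to 7.70, also lay near these medians. Dsg3 was below the level of 6.55 under which the lowest 25% of genes were left out, so 9 of the 10 genes were tested.

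Nicotine 1 and nicotine 3 stood apart from the other 8 mice. The median correlation with the other arrays, across the 14953 tested genes, was 0.880 for nicotine 1 and 0.654 for nicotine 3, and 0.983 to 0.988 for the other 8. Prostate secretory markers, 7 measured genes among them Pbsn and Msmb, averaged 10.4 in nicotine 1 and 6.79 in nicotine 3, against 11.4 to 11.7 in water mice. Luminal epithelium markers, 7 genes such as Krt8 and Krt18, averaged 11.9 in nicotine 1 and 8.00 in nicotine 3, against 11.9 to 12.1 in water mice. Neuroendocrine markers, 10 genes such as Chga, averaged 9.40 and 10.2 in these 2 mice, against 7.04 to 7.57 in water mice. The differences between groups below are therefore given with and without nicotine 1 and 3. In RNA of whole prostates, fewer cells of a type and less RNA per cell cannot be told apart.

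Krt5 encodes the type II keratin of basal cells. It measured 7.47, 8.06, 6.56, 7.02 and 7.69 in nicotine mice 1 to 5, against 7.51, 7.50, 7.58, 8.06 and 7.76 in water mice 1 to 5. Nicotine 3 and 4 lay clearly and nicotine 1 narrowly below every water mouse, while nicotine 2 matched the highest water mouse, so the groups overlapped. Krt5 averaged 7.36 ± 0.58 in nicotine mice and 7.68 ± 0.24 in water mice (SD, n = 5 each). Nicotine minus water, the log2 difference of Krt5 was -0.32 ± 0.26 (SE), with a 95% interval from -0.90 to 0.26 and an adjusted p of 0.504 by limma. It was -0.09 ± 0.21 (SE) without nicotine 1 and 3.

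The promoter of Krt5 is shown because Krt5 is the member whose profile another member followed most closely, as described below. It is the 250 bases upstream of the transcript start in RefSeq (GRCm38.p6, chr15:101712906-101713155, minus strand), written 5′ to 3′ on the strand of the gene. Capitals mark a match to the half-site of the p53 family, to which p63 belongs, 95 to 86 bases upstream of the start.
Krt5 promoter: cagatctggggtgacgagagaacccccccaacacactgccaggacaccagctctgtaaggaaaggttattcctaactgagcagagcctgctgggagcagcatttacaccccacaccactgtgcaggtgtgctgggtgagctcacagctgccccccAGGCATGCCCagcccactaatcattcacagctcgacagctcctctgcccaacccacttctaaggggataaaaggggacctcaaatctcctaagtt
Both strands were searched for 5 motifs, and the half-site was the only one with a match, 1 in all. The others were a TATA box (TATAAA), an AP-1 site (TGANTCA), an Sp1 site (GGGCGG) and an AP-2 site (GCCNNNGGC). Of 32851 RefSeq promoter windows of the same length, 7.13% held the half-site, 12.4% the TATA box, 6.75% the AP-1 site, 32.7% the Sp1 site and 13.7% the AP-2 site. RefSeq windows were at hand for 4 of the 10 genes. That of Krt14 starts 1480 bases inside the annotated 5′ end of the gene, held 0 matches and is not printed.

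Krt14 encodes the type I keratin that pairs with Krt5 in a filament. It measured 7.28, 7.79, 6.72, 7.30 and 7.71 in nicotine mice 1 to 5, against 7.38, 7.37, 7.63, 7.96 and 7.54 in water mice 1 to 5. As for Krt5, nicotine 3 was the lowest and water 4 the highest of the 10 mice, and nicotine 1, 3 and 4 lay below every water mouse. Krt14 averaged 7.36 ± 0.43 in nicotine mice and 7.58 ± 0.24 in water mice (SD, n = 5 each), a difference of -0.22 ± 0.20 (SE). Its 95% interval ran from -0.67 to 0.24 and its adjusted p was 0.544 by limma. The sign turned without nicotine 1 and 3, at 0.02 ± 0.15 (SE).

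The keratin partners followed each other across mice. As a measure of likeness, the profile of each gene over the 10 arrays was centred on its mean, and the root mean square difference between profiles was taken. Krt14 differed from Krt5 by 0.17 log2 units and was the 2nd nearest of 14952 tested genes to it. Seen from Krt14, Krt5 was the 20th nearest. The next pair by rank among the 36 pairs of tested members was Krt15, the 32nd nearest gene to Krt17. Seen from Krt15, however, Krt17 was only the 4122nd nearest. With predicted and clone names left out, Fut4, a fucosyltransferase gene, was nearest to Krt5 (0.15) and to Krt14 (0.14). It was singled out after its values were seen. Both keratins were also higher in some water mice than in others: Krt14 was 7.63, 7.96 and 7.54 in water 3, 4 and 5, against 7.38 and 7.37 in water 1 and 2. Seminal vesicle secretory genes, 9 genes such as Svs2, averaged 12.1, 13.2 and 12.96 in water 3, 4 and 5, against 7.25 and 7.29 in water 1 and 2. Among nicotine mice this seminal vesicle mean was 12.5 in nicotine 5 and 5.90 to 8.58 in the others. Nicotine 2, with a seminal vesicle mean of 7.98, had the highest Krt5 (8.06) and Krt14 (7.79) of the nicotine mice. The part of this tissue in the keratin values was not tested between mice. With the seminal vesicle mean as a covariate the difference between groups was -0.14 for Krt5 and -0.03 for Krt14.

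**Figure D1:**
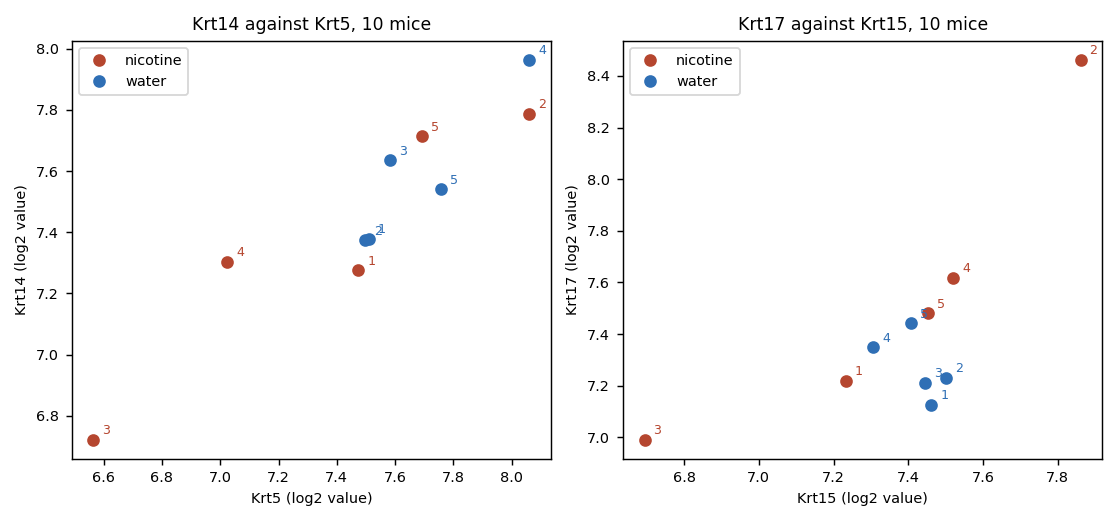
Log2 values of Krt14 against Krt5 (left) and of Krt17 against Krt15 (right) in the 10 mice, nicotine in red and water in blue, with mouse numbers beside the points. Nicotine 3 lies at the lower left of both panels, with Krt5 at 6.56 and Krt15 at 6.69, and nicotine 2 stands at the upper right for Krt17 at 8.46.

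Krt15 encodes a type I keratin of basal and stem-like epithelial cells. It measured 7.23, 7.86, 6.69, 7.52 and 7.45 in nicotine mice 1 to 5, against 7.46, 7.50, 7.45, 7.31 and 7.41 in water mice 1 to 5. The water mice lay within 0.20 log2 units of each other, whereas the nicotine mice spanned 1.17 and included both the lowest and the highest of the 10. For Krt15 the difference was -0.07 ± 0.18 (SE), with a 95% interval from -0.48 to 0.34 and an adjusted p of 0.826 by limma. The sign turned without nicotine 1 and 3, at 0.19 ± 0.09 (SE), and without nicotine 3 alone, at 0.09.

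Krt17 encodes a type I keratin that is present in basal cells and is induced in stressed or wounded epithelium. It measured 7.22, 8.46, 6.99, 7.62 and 7.48 in nicotine mice 1 to 5, against 7.13, 7.23, 7.21, 7.35 and 7.44 in water mice 1 to 5. Nicotine 2, 4 and 5 lay above every water mouse, nicotine 2 by far the highest at 2.28 times the water mean, and nicotine 3 lay below them. For Krt17 the difference was 0.28 ± 0.24 (SE), with a 95% interval from -0.25 to 0.81 and an adjusted p of 0.515 by limma. It was 0.06 without nicotine 2. Leaving out nicotine 1 and 3 it was 0.58 ± 0.19 (SE), with an unadjusted p of 0.0103 and an adjusted p of 0.189 by limma, and the groups then did not overlap. Groups did not overlap in 10.6% of all tested genes in those 8 mice, with 4.12% higher in nicotine mice.

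The stress keratins that often accompany Krt17 were measured too. Krt6a was 6.40, 6.92, 6.29, 6.27 and 6.46 in nicotine mice 1 to 5, against 6.23, 6.57, 6.43, 6.28 and 6.29 in water mice 1 to 5, and it was too low to be tested. Krt16 was 6.93 in nicotine 2 and 6.47 to 6.75 in the other nicotine mice, against 6.55 to 6.80 in water mice. Both were highest in nicotine 2, the mouse with the highest Krt17, while Krt6b, at 4.86 to 5.16 in all mice, was not. Leaving out predicted and clone names, Tgm1, the transglutaminase gene of stratified epithelium, had the profile nearest to Krt17 (0.17). Hp and Fgfbp1 were almost as near (0.17 each). Tgm1 was singled out after its values were seen. Tgm1 was 8.18 in nicotine 2 and 7.15 to 7.70 in the other nicotine mice, against 7.42 to 7.50 in water mice. In RefSeq, Krt15, Krt14 and Krt17 lie in one cluster of type I keratin genes, with Krt19 and Krt9 between the first pair and Krt16 between the last, and these genes are similar in sequence. The probe sequences were not used here, so cross-hybridisation among keratins was not tested.

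Trp63 encodes p63, the transcription factor that basal cells need. It measured 7.50, 7.40, 7.39, 7.58 and 7.43 in nicotine mice 1 to 5, against 7.48, 7.45, 7.50, 7.62 and 7.57 in water mice 1 to 5. The highest value was 1.17 times the lowest, and nicotine 2, 3 and 5 lay slightly below every water mouse. For Trp63 the difference was -0.06 ± 0.06 (SE), with a 95% interval from -0.20 to 0.08 and an adjusted p of 0.567 by limma. It was -0.05 without nicotine 1 and 3. The interval leaves room for a decrease of up to 0.20 log2 units in the mean, and the probe set does not separate the isoforms of p63.

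**Figure D2:**
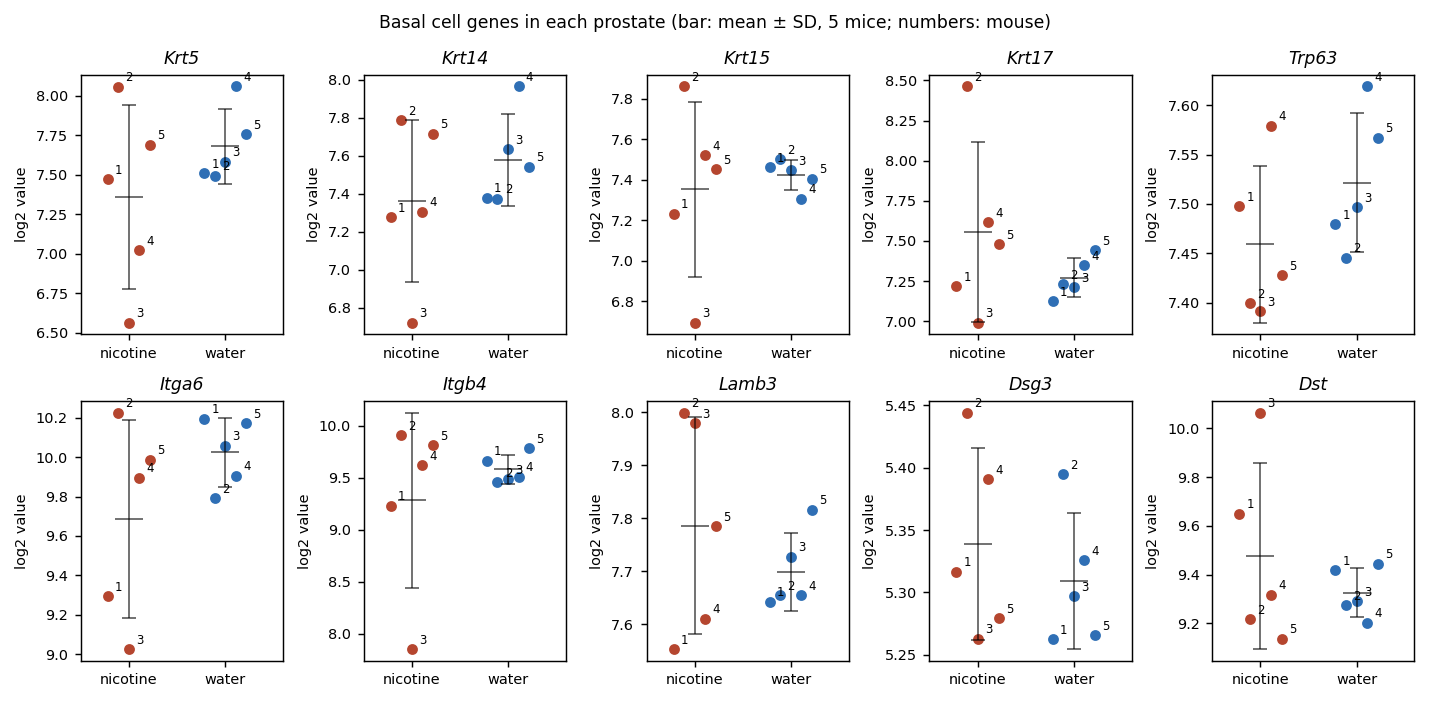
Log2 values of the 10 genes in each mouse, nicotine left of water, with the mouse number beside each point and the mean ± SD of 5 mice as a bar. Each panel has its own axis, which does not start at 0. Nicotine 3 is lowest for Krt5, Krt14, Krt15, Krt17, Trp63, Itga6 and Itgb4 and highest for Dst.

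Itga6 and Itgb4 encode the α6 and β4 chains of the laminin receptor of hemidesmosomes. Itgb4 measured 9.23, 9.91, 7.85, 9.62 and 9.81 in nicotine mice 1 to 5, against 9.67, 9.46, 9.49, 9.51 and 9.79 in water mice 1 to 5. Nicotine 3 was 3.32-fold below the water mean, the widest departure of any of the 10 genes in any mouse, and nicotine 1 also lay below all water mice. Nicotine 2 and 5 lay above all water mice. The log2 difference was -0.30 ± 0.35 (SE), with a 95% interval from -1.08 to 0.48 and an adjusted p of 0.623 by limma. It was 0.20 ± 0.09 (SE) without nicotine 1 and 3, with an adjusted p of 0.345, and 0.06 without nicotine 3 alone.

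Itga6 measured 9.29, 10.2, 9.03, 9.90 and 9.99 in nicotine mice 1 to 5, against 10.2, 9.79, 10.1, 9.91 and 10.2 in water mice 1 to 5. Nicotine 1 and 3 were lower than all the others and the remaining 3 nicotine mice lay in or just above the water range. For Itga6 the difference was -0.34 ± 0.22 (SE), with a 95% interval from -0.83 to 0.16 and an adjusted p of 0.464 by limma. It was 0.01 ± 0.11 (SE) without nicotine 1 and 3. Without nicotine 2 it was -0.47 ± 0.21 (SE), with an unadjusted p of 0.0476 and an adjusted p of 0.360 by limma. Endothelial cells also carry Itga6, and the mean of 8 endothelium markers was 8.43 in nicotine 1 and 7.86 in nicotine 3, against 7.90 to 8.12 in water mice. These markers did not move together in nicotine 1. There Vwf was 11.3, against 7.97 to 8.06 in water mice, and Kdr was 7.64, against 6.95 to 7.20. Emcn was 8.33 in nicotine 1, against 8.34 to 8.97 in water mice. The part of that cell type in the Itga6 values was not tested.

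Itgb4 was the member with an SD over the 10 arrays above 0.5 log2 units (0.59), and the genes with the nearest profiles to it were sought by the rule given in the methods. They were D17H6S56E-5, Ttc7 and Sigirr, with root mean square differences of 0.08 over 10 arrays in each case. Sigirr, a receptor of the interleukin 1 family, was 7.61 in nicotine 3 and 9.06 to 9.52 in the other nicotine mice, against 9.23 to 9.36 in water mice. Ttc7 was 7.75 in nicotine 3 and 9.03 to 9.63 in the other nicotine mice, against 9.30 to 9.54 in water mice. The integrin partners were less alike than the keratin partners: Itga6 differed from Itgb4 by 0.29 and was the 1027th nearest of 14952 genes to it.

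Lamb3 encodes the β3 chain of laminin-332, the basement membrane ligand of that integrin. It measured 7.55, 8.00, 7.98, 7.61 and 7.79 in nicotine mice 1 to 5, against 7.64, 7.65, 7.73, 7.66 and 7.82 in water mice 1 to 5. Nicotine 2 and 3 lay above all water mice and nicotine 1 and 4 below them, so nicotine 3 was high for the ligand and low for both chains of its receptor. The log2 difference was 0.09 ± 0.10 (SE), with a 95% interval from -0.14 to 0.31 and an adjusted p of 0.615 by limma. It was 0.10 without nicotine 1 and 3, and 0.03 without nicotine 2, 0.04 without nicotine 3 and 0.14 without nicotine 1 alone.

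Dst encodes dystonin, whose epithelial form (BPAG1e) links keratin filaments to hemidesmosomes, and whose other forms are made in neurons and muscle. It measured 9.65, 9.22, 10.1, 9.32 and 9.14 in nicotine mice 1 to 5, against 9.42, 9.28, 9.29, 9.20 and 9.44 in water mice 1 to 5. Nicotine 3 and nicotine 1 lay above all water mice, opposite to Itgb4 in the same mice, and nicotine 5 lay below them. For Dst the difference was 0.15 ± 0.17 (SE), with a 95% interval from -0.22 to 0.52 and an adjusted p of 0.601 by limma. The sign turned, to -0.10 ± 0.07 (SE), without nicotine 1 and 3. Beside these values, the neuroendocrine markers were highest in nicotine 3 and 1, and the mean of 8 skeletal muscle markers was 10.3 in nicotine 1 and 7.35 in nicotine 3, against 7.65 to 7.77 in water mice. Their part in the Dst values was not tested.

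Dst has several transcript starts, and its 1 probe set gave 1 value for the gene. The windows listed for it in RefSeq (GRCm38.p6, plus strand) are shown because they differ in composition. They are the 250 bases upstream of the starts, at chr1:34011345-34011594 and chr1:34160010-34160259, written 5′ to 3′, with GGGCGG matches in capitals. Both lie inside the annotated gene, 103707 and 252372 bases from its 5′ end, and RefSeq windows of its other starts were not used here.
Dst start 1: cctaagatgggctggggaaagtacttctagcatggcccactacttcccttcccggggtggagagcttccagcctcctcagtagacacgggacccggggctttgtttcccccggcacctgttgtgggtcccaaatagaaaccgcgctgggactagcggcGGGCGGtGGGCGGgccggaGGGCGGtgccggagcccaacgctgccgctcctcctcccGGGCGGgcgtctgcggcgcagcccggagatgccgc
Dst start 2: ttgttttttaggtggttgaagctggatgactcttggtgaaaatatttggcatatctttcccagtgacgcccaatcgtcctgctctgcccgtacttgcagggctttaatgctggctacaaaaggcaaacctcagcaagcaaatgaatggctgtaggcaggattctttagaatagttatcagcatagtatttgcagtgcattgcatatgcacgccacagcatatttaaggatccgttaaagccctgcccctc
The window of start 1 held 4 matches to GGGCGG and that of start 2 held 0, and neither held any of the other 4 motifs searched. The array value does not tell which start was used in which mouse.

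Dsg3 encodes a desmosomal cadherin of basal and stratified epithelium. It measured 5.32, 5.44, 5.26, 5.39 and 5.28 in nicotine mice 1 to 5, against 5.26, 5.39, 5.30, 5.33 and 5.27 in water mice 1 to 5. All 10 values lay within 0.18 log2 units and below the level at which low genes were left out, so Dsg3 was not tested.

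**Figure D3:**
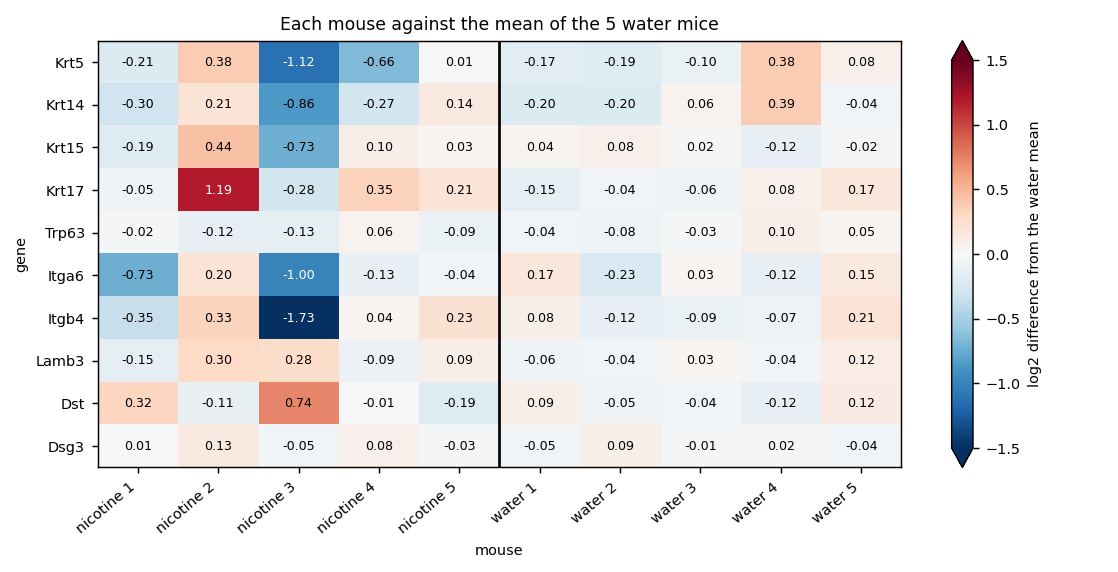
Log2 difference of each mouse from the mean of the 5 water mice for the 10 genes, nicotine mice left of the line and water mice right of it; red is higher and blue lower. Nicotine 3 combines -1.73 for Itgb4 with 0.74 for Dst, and nicotine 2 has 1.19 for Krt17.

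Per mouse, departures from the water mice were counted over the 9 tested genes. In nicotine 3, 7 lay below all 5 water mice and 2 above, where 42.2% of all tested genes lay below and 38.0% above. In nicotine 1, 6 lay below and 1 above, where 38.6% of all genes lay below and 34.1% above. Nicotine 2 went the other way, with 5 above and 1 below, where 23.0% of all genes lay above and 21.7% below. Nicotine 4 had 2 above and 3 below (15.6% and 18.4% of all genes), and nicotine 5 had 2 above and 2 below (17.5% and 19.9%). The nicotine mice were also more spread than the water mice: the SD was larger in nicotine mice for 9 of 9 genes, and for 84.5% of all tested genes. The ratio of the SDs, nicotine over water, ran from 1.13 for Trp63 to 5.99 for Itgb4.

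Between groups, 0 of 9 genes passed an adjusted p of 0.05 by limma, as did 0% of the 14953 genes tested. At an unadjusted p under 0.05 there were 0 of 9, where 10.1% of all genes were under it. The groups overlapped in all 9 genes, and 4.90% of all genes had groups that did not overlap. Of the 9 differences 6 were negative, with a median of -0.07 against 0.004 over all genes, of which 49.3% were negative. With nicotine 1 and 3 left out, 3 of 9 were negative with a median of 0.02, against a median of 0.01 and 46.5% negative over all genes. In those 8 mice Krt17 alone had an unadjusted p under 0.05, 1 of 9 genes, where 14.7% of all genes did.

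**Figure D4:**
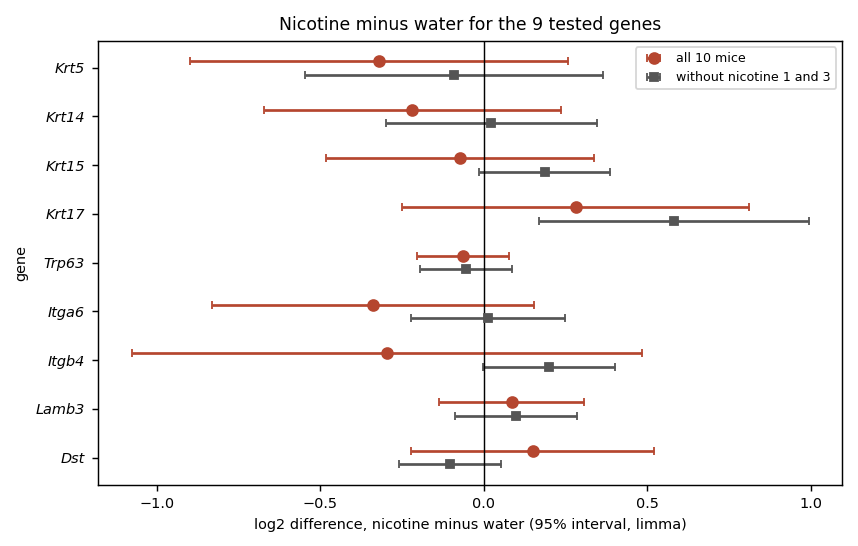
Log2 difference, nicotine minus water, of the 9 tested genes with its 95% interval by limma, for all 10 mice (red circles) and without nicotine 1 and 3 (grey squares). All intervals over 10 mice include 0, and without these mice that of Krt17 runs from 0.17 to 0.99.

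Further genes of hemidesmosomes, the basement membrane, desmosomes and basal cells were taken from lists. Not all of them are particular to the basal layer. Of 10 further hemidesmosome and basement membrane genes 9 were measured and tested, 7 with a negative and 2 with a positive difference, a median of -0.16, and 0 past an adjusted p of 0.05 by limma. Fermt1, the kindlin of epithelium that activates integrins, had a difference of -1.06 ± 0.65 (SE), with 6.03 in nicotine 3 and 8.28 to 9.81 in the other nicotine mice, against 9.57 to 10.02 in water mice. Itga3, the integrin chain that also binds laminin-332, had -0.71 ± 0.57 (SE), and Cd151, the tetraspanin that binds these integrins, had -0.33 ± 0.21 (SE). Itgb1 had -0.16 ± 0.08 (SE). These genes were named for the smallest unadjusted p of the list by limma, and all were negative. The 2 positive differences were 0.09 ± 0.09 (SE) for Col17a1 and 0.03 ± 0.18 (SE) for Plec. With nicotine 1 and 3 left out, the differences were -0.05 for Fermt1, -0.05 for Itga3, -0.004 for Cd151 and -0.09 for Itgb1. Without nicotine 1 and 3 the list's median was 0.02, with 5 positive and 4 negative differences and 0 genes under an unadjusted p of 0.05.

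Of 9 further desmosome genes 8 were tested, 6 negative and 2 positive, with a median of -0.36 and 0 past an adjusted p of 0.05. Perp, a p63 target needed for desmosomes, had a difference of -1.15 ± 0.70 (SE), and the plakophilin gene Pkp2 had -0.67 ± 0.53 (SE). Dsg2, the cadherin of simple epithelium, had -0.60 ± 0.56 (SE), and Pkp1, the plakophilin of stratified epithelium, had 0.55 ± 0.38 (SE). In nicotine 3 the value was 6.68 for Perp, 6.30 for Pkp2 and 6.53 for Dsg2, the lowest of all mice in each case, and Pkp1 was highest in nicotine 1 at 9.76. With nicotine 1 and 3 left out, the differences were -0.13 for Perp, -0.07 for Pkp2, 0.001 for Dsg2 and 0.19 for Pkp1, and the list's median was 0.04, with 6 positive and 2 negative. Dsc3, the desmosomal cadherin that accompanies Dsg3 in stratified epithelium, was too low on average to be tested and is singled out after its values were seen. It was 5.82, 5.96, 8.62, 5.84 and 5.84 in nicotine mice 1 to 5, against 5.58, 5.81, 5.77, 5.68 and 5.68 in water mice 1 to 5. Its value in nicotine 3 stood far above the other 9 mice, in which Dsc3 was low, and Dsg3 was not raised in that mouse.

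Of 13 further genes of basal cells 12 were measured and tested, 7 negative and 5 positive, with a median of -0.02 and 0 past an adjusted p of 0.05. At an unadjusted p under 0.05 there was 1 of 12, near the 10.1% of all genes: Snai2, a zinc finger repressor of basal cells, at -0.47 ± 0.21 (SE) with an unadjusted p of 0.0472 and an adjusted p of 0.458 by limma. The Notch ligand gene Jag2 had a difference of 0.89 ± 0.44 (SE), with 9.65 in nicotine 1 and 9.07 in nicotine 3, 7.24 to 7.55 in the other nicotine mice, against 7.27 to 7.38 in water mice. The galectin gene Lgals7 had 0.29 ± 0.15 (SE) and the survival gene Bcl2 had -0.13 ± 0.08 (SE). Without nicotine 1 and 3, 2 of 12 had an unadjusted p under 0.05, the 14-3-3 sigma gene Sfn at 0.45 ± 0.13 (SE) and Bcl2 at -0.13 ± 0.06 (SE), where 14.7% of all genes did. The difference of Snai2 was then -0.12 ± 0.07 (SE), that of Jag2 0.12 ± 0.07 (SE) and that of Lgals7 0.07 ± 0.08 (SE).

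Markers of other epithelia and tissues are set beside the basal genes for each mouse. The mean of the 10 basal genes was 7.45 to 8.24 in nicotine mice, against 7.86 to 8.02 in water mice. In nicotine 3 this mean differed by -0.49 log2 units from that of the water mice. The difference there was -3.96 for the luminal mean, -4.79 for the prostate secretory mean, -2.80 for the smooth muscle mean and 1.80 for the proliferation mean. In water mice the basal mean was 7.94, nearer the array medians of 7.50 to 7.57 than the luminal mean of 12.0. The sizes of these differences are therefore not comparable between lists. The basal mean also averages unlike genes, from -1.73 for Itgb4 to 0.74 for Dst in nicotine 3, and includes the untested Dsg3. In nicotine 2 the basal mean was 0.29 above that of the water mice, and the luminal mean 0.07 above. Of the 10 squamous markers 5 were too low to be tested, among them Krt1, Ivl and Krt6a, and the list's mean was 6.28 to 7.37 in nicotine mice, against 7.18 to 7.32 in water mice. Urothelium markers, 6 genes such as Upk1b, averaged 7.01 in nicotine 3 and 8.65 to 8.79 in the other nicotine mice, against 8.61 to 8.76 in water mice. Of 6 Schwann cell markers 4 were measured, with means of 6.73 to 7.19 in nicotine mice, against 7.01 to 7.25 in water mice. The mean of 7 fibroblast markers was 8.40 to 9.44 in nicotine mice, against 9.74 to 10.1 in water mice. The mean of 7 proliferation markers such as Mki67 was 9.83 to 11.3 in nicotine mice, against 9.41 to 9.61 in water mice. In both of these lists every nicotine mouse lay on one side of every water mouse, below for the fibroblast mean and above for the proliferation mean. At an unadjusted p under 0.05 there were 5 of 7 fibroblast and 6 of 7 proliferation genes, where 10.1% of all genes were. Without nicotine 1 and 3 there were 7 of 7 of each, where 14.7% of all genes were. Of 8 endothelium genes, 1 was under 0.05 over all mice and 4 without nicotine 1 and 3, with all 8 differences then negative. In those 8 mice skeletal muscle had 2 of 7, prostate secretory 1 of 7, urothelium 1 of 5 and the remaining marker lists 0. By limma, 0 genes of these lists passed an adjusted p of 0.05. The lists were chosen with earlier results of these data known, so these counts are only a description. The part of these tissues in the values of the basal genes was not tested.

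**Figure D5:**
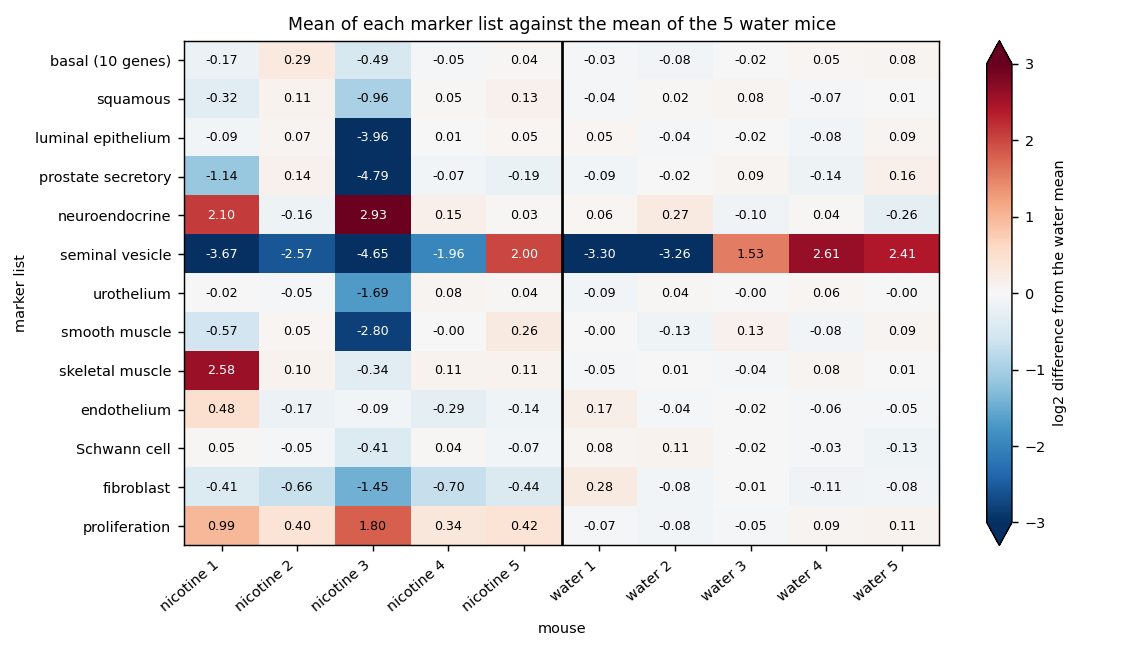
Log2 difference of each mouse from the mean of the 5 water mice for the mean of the basal genes and of 12 marker lists, nicotine mice left of the line and water mice right of it. Colours are capped at 3 log2 units and the numbers are not. The basal mean is -0.49 in nicotine 3, beside -3.96 for the luminal list. In water mice these means are 7.94 and 12.0, so the lists start from unlike levels.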

How the data were processed

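Total RNA of 10 prostates was amplified, labelled with biotin and hybridised to Affymetrix whole-transcript arrays, per the labels' protocols. The authors deposited 1 table of log2 values for 35556 probe sets. The sources used here do not say how they were background-corrected, summarised or normalized. The scale was read as log2 from the range of 3.59 to 14.1, and array medians were 7.50 to 7.57. Each numbered sample was taken as 1 mouse. Scan dates were not at hand, so no batch was checked.

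Names of probe sets came from an annotation of the platform that may be outdated: 21789 had 1 symbol, 1621 several and 12146 none there; 21698 of the first kind matched RefSeq by Entrez ID, and 0 symbols changed. For each of 19938 genes the single-symbol probe set with the highest mean was kept, the lowest 25% of genes by mean (below 6.55) were left out, and 14953 were tested with limma 3.58.1 in R 4.3.3 (lmFit and eBayes, all 10 arrays, two-sided, Benjamini-Hochberg over all tested genes, threshold 0.05). Precision is limited by having 5 arrays in each group. The fit was tested on simulated data with the same spread in both groups. In the real data the median SD was 0.26 in nicotine mice and 0.10 in water mice. The simulation therefore does not test the fit under unequal spread.

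The members and lists were chosen with earlier results of these data known, as was the choice to leave out nicotine 1 and 3. Named genes were all members and up to 4 genes with the smallest unadjusted p of each hemidesmosome, desmosome or basal cell list. Col17a1 and Plec were added as the positive ones of their list. For members with an SD above 0.5, the 3 genes with the nearest profiles were added. Predicted and clone names were left out wherever nearest genes were named, also for Fut4 and Tgm1. Mouse numbers 1 to 5 occur in both groups; correlations of same-numbered mice in their deviations from the group means were -0.13 to 0.16, so the numbers were not taken as pairs. Alternatives were no filter, the mean of probe sets, quantile normalization, median centring, eBayes with trend and robust settings, weighting of arrays, a block for the mouse number, a seminal vesicle covariate and leaving out mice.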

Additional observations from a re-analysis of the deposited data

Results flagged for a closer look

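In these genes 1 mouse lay far from the other 4 of its group, by Dixon's criterion at 95%, in 8 of 62 groups looked at; chance flags about 1 in 20 groups. Over all 14953 tested genes such a mouse was present in 18.9% of nicotine groups and 5.82% of water groups. Some of the genes looked at, Dsc3 and the genes with the nearest profiles among them, were chosen for their values, so the count of 8 is only a description. All 8 were in nicotine mice, and 0 were among the 20 groups of the basal genes themselves. In nicotine 3 the log2 value was far below the group for Itga3 (7.18), Dsg2 (6.53), Perp (6.68), Pkp2 (6.30) and Sigirr (7.61), and far above it for Dsc3 (8.62). Pkp1 was far above the group in nicotine 1 (9.76) and Krt6a in nicotine 2 (6.92).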

How the results depend on the processing

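For the 9 tested basal genes and 19 alternatives, 159 of 171 differences kept their direction and 12 reversed. None passed an adjusted p of 0.05 by limma (smallest 0.105). Some settings could not change a difference: no filter, the mean of probe sets, trend and robust settings and the block for mouse number. Directions kept there are counted in the 159 but were fixed in advance. With array weights the reversed differences were 0.0186 for Krt14, 0.131 for Krt15, 0.0035 for Itga6, 0.246 for Itgb4 and -0.102 for Dst, and without nicotine 1 and 3 they were 0.0235, 0.187, 0.0122, 0.20 and -0.103. The cause of the change with weights was not tested. Leaving out each mouse in turn gave -0.199 to 0.0926 for Krt15 and -0.453 to 0.0624 for Itgb4, positive without nicotine 3, and 0.0039 to 0.236 for Dst, lowest without nicotine 3. The ranges were -0.493 to -0.119 for Krt5, -0.324 to -0.0578 for Krt14, 0.0554 to 0.423 for Krt17, -0.0925 to -0.0381 for Trp63, -0.473 to -0.173 for Itga6 and 0.033 to 0.144 for Lamb3. The count of members with an unadjusted p under 0.05, 0 over all mice, was 0 to 1 over the mice left out in turn, 2 with array weights (Krt17 and Itgb4, where 25.0% of all genes were under it) and 1 without nicotine 1 and 3; in those 8 mice 1 member had groups that did not overlap. With array weights 1 further basal gene, Sfn, passed (difference 0.46 ± 0.12 SE, adjusted p of 0.0407 by limma, where 7.33% of all genes passed). With the mouse number as a replicate block 0 members passed, the same as without the block, and of the 5 nicotine mice, 0 matched best with their own number. The low values of Dsg3 kept it out of the test.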
